A study of Homo sapiens with 6 samples.

Results

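The 9 enzymes described here make or use glutamate and alpha-ketoglutarate, the co-substrates of BCAT1: GLS2, GLUL, GLUD1, GOT1, GOT2, GPT2, OGDH, IDH1 and IDH2. They were picked by symbol for their place in the pathway, and each matched 1 of the 64252 rows of the count table. Messenger RNA was sequenced in bulk from SK-N-BE(2), an established human neuroblastoma cell line in which MYCN is amplified. There were 3 groups of 2 libraries, all from this line. Control cells carried shControl, a short hairpin RNA labelled shNC in the treatment field, and the other groups carried shBCAT1#1 (hairpin 1) or shBCAT1#2 (hairpin 2), which target BCAT1. The design text calls the cells transfected, and the labels give no time after it and no clone. Separate cultures within a group are not stated either, so the p-values rest on the spread between libraries of a group, and that spread may be technical.

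BCAT1 moves an amino group from leucine, isoleucine or valine to alpha-ketoglutarate, which leaves glutamate and a branched-chain keto acid. Other enzymes work on the same pair of metabolites. Glutaminases release glutamate from glutamine and glutamine synthetase reverses that step, while glutamate dehydrogenase and the aspartate and alanine aminotransferases convert glutamate to alpha-ketoglutarate. Isocitrate dehydrogenases make alpha-ketoglutarate from isocitrate, and the oxoglutarate dehydrogenase complex consumes it in the citric acid cycle. In proliferating tumour cells, glutamine is a known source of carbon for this cycle and of nitrogen for other amino acids.

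Libraries held 32333416 to 39321388 counts. BCAT1 itself stood at 459 and 475 CPM (read counts scaled to a common library size) in control cells, 55.7 and 55.3 with hairpin 1, and 115 and 111 with hairpin 2, below both controls in all 4 hairpin libraries. Of 12 markers of sympathetic neuroblastoma, 11 reached a mean of 1 CPM. Their summed level was between 4063 and 4072 CPM under shControl, between 3540 and 3643 under hairpin 1 and between 3019 and 3129 under hairpin 2. MYCN made up much of that sum (2260 CPM on average under shControl, 1824 under hairpin 1 and 1758 under hairpin 2). Single markers did not all follow the sum. CHGB went from a mean of 128 CPM under shControl to 307 with hairpin 1 and 74.0 with hairpin 2. DBH, TH and ISL1 were likewise higher with hairpin 1 and lower with hairpin 2. After a correction for GC content and exon length, described below, the log2 change of MYCN was small. It was −0.09 with hairpin 1 (edgeR adjusted p = 0.07) and −0.10 with hairpin 2 (0.046). Without that correction, 6 of the 11 markers tested rose and 5 fell with hairpin 1, and 1 rose and 9 fell with hairpin 2. The summed level of 8 fibroblast markers, 6 of which reached 1 CPM, was between 1263 and 1279 CPM under shControl, between 831 and 832 under hairpin 1 and between 949 and 951 under hairpin 2. Of 7 tested, again without the correction, 6 fell with hairpin 1, and 3 fell and 1 rose (PDGFRA) with hairpin 2. After the correction PDGFRA fell with hairpin 2 (−0.20, edgeR adjusted p = 0.0019). THY1 alone went from a mean of 646 CPM under shControl to 330.2 with hairpin 2. Schwann cell precursor markers (1 of 5 at 1 CPM, SOX10 at 0) summed to at most 2.94 CPM, and epithelial markers (4 of 6) to 17.7 to 26.5 CPM. Markers of blood and endothelium (2 of 6, CD3E at 0) summed to between 36.4 and 44.5 CPM in control and hairpin 1 cells and between 21.3 and 24 with hairpin 2. Most of that sum was CD68, with means of 35.7 CPM under shControl, 30.8 under hairpin 1 and 15.6 under hairpin 2. Exons of AC016876.2 on the same strand cover 81.7% of the exon bases of CD68, so part of its reads is uncertain. The part of these shifts in the results was not tested, and in bulk RNA fewer cells of a type and less RNA per cell cannot be told apart.

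Promoter windows of 7 of the 9 enzymes (all but GPT2 and OGDH) were taken from RefSeq's table (build GRCh38.p14), from 250 bases before to 50 after a transcript start. The windows of GOT1 (chr10:99430575-99430874, minus strand) and GOT2 (chr16:58734267-58734566, minus strand) are shown. Without the correction for GC content and length, both genes rose with hairpin 1 and fell with hairpin 2. After it, the fall of GOT2 did not pass. The windows were searched on both strands for the E-box CACGTG, a MYC family motif, and for TGATGNAAN, a motif of amino acid response elements. Neither motif contains the other, no match of one overlapped a match of the other in these windows, and capitals mark matches.
GOT1: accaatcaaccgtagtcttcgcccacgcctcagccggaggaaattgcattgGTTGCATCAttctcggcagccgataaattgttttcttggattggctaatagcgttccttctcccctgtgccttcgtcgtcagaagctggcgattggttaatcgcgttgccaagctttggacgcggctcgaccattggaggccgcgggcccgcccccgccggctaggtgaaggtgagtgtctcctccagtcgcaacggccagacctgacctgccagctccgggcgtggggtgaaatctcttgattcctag
GOT2: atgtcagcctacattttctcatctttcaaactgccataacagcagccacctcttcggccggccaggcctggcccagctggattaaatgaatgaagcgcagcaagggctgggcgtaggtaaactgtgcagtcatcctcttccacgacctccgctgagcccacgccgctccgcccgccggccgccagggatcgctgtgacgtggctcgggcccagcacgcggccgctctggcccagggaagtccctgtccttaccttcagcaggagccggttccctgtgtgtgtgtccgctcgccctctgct
The capitals in GOT1 are GTTGCATCA, a match to TGATGNAAN on the opposite strand that begins 199 bases before the start site. That motif was present in 3.67% of 27305 windows of the same length, and in 1 of the 9 windows of the 7 enzymes. The E-box was present in 7.43% of all windows and in 0 of those 9. A match of letters is a description of the window, and no match says nothing about a factor.

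In control cells IDH2 and GLUD1 were the most abundant of the 9. Scaled to the length of annotated exons, the mean level was 106 CPM per kb for IDH2, 48.8 for GLUD1, 36.8 for GOT2 and 20.4 for GOT1. GLUL (15.8), IDH1 (15.6) and OGDH (15.6) followed, and their libraries overlapped, so their order was within the spread. GPT2 stood lower at 10.2 CPM per kb, and GLS2 was close to undetected at 0.0293. With hairpin 1, GPT2 (16.2 and 16.8 CPM per kb) drew level with OGDH (16.0 and 16.7), and with hairpin 2 IDH1 (18.0 and 18.1) stood above GOT1 (16.6 and 17.3). On this scale GLUL was the lowest of the 8 well-detected enzymes in all 4 knockdown libraries. Its annotated exons span 9032 bases, against a median protein-coding transcript of 4364, so this rank holds for annotated exon length only. In control cells too, the order depended on the length used. With the median length of protein-coding transcripts, an alternative chosen after seeing the data, GOT2 (68.0 CPM per kb) stood above GLUD1 (56.5), and GLUL (32.6) and IDH1 (30.9) above GOT1 (23.5), while IDH2 remained first at 204.

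**Figure D1:**
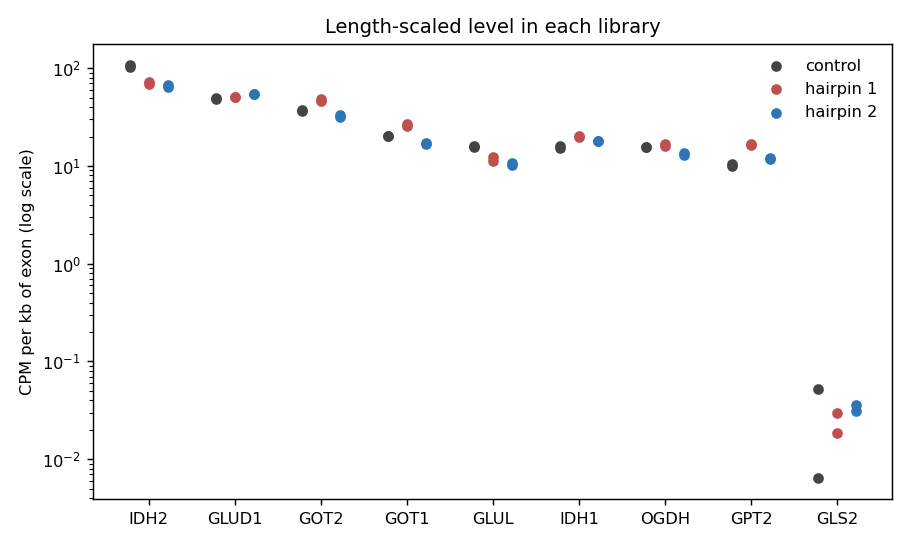
Level of each enzyme in each library, in CPM per kb of annotated exon on a log axis, with 1 point per library coloured by group. IDH2 is the highest in every group, at 106 CPM per kb in control cells, and GLS2 lies far below the others.

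Over both hairpins against control, 3 of the 8 enzymes that could be tested rose (GPT2, IDH1 and GLUD1), 2 fell (IDH2 and GLUL) and 3 did not pass (GOT1, GOT2 and OGDH). GLS2 was not tested because its counts were too low. Changes were tested with edgeR's quasi-likelihood test on the counts, with p-values adjusted by the Benjamini-Hochberg method across the 18734 genes that passed the low-count filter, and called at 0.05. Changes were common in these libraries: 50% of all genes passed in this comparison, 23.6% upwards and 26.4% downwards. The median log2 fold change of the enzymes was 0.07, and that of all genes −0.01. Fold changes followed the GC content and exon length of genes, with Spearman correlations of −0.45 and 0.38 over 13907 coding genes (genes are not independent of each other). Values after a per-library correction for both are therefore given for the enzymes and the pathway genes named below. They are given where they change a call or move a called value by over 1.5 times.

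**Figure D2:**
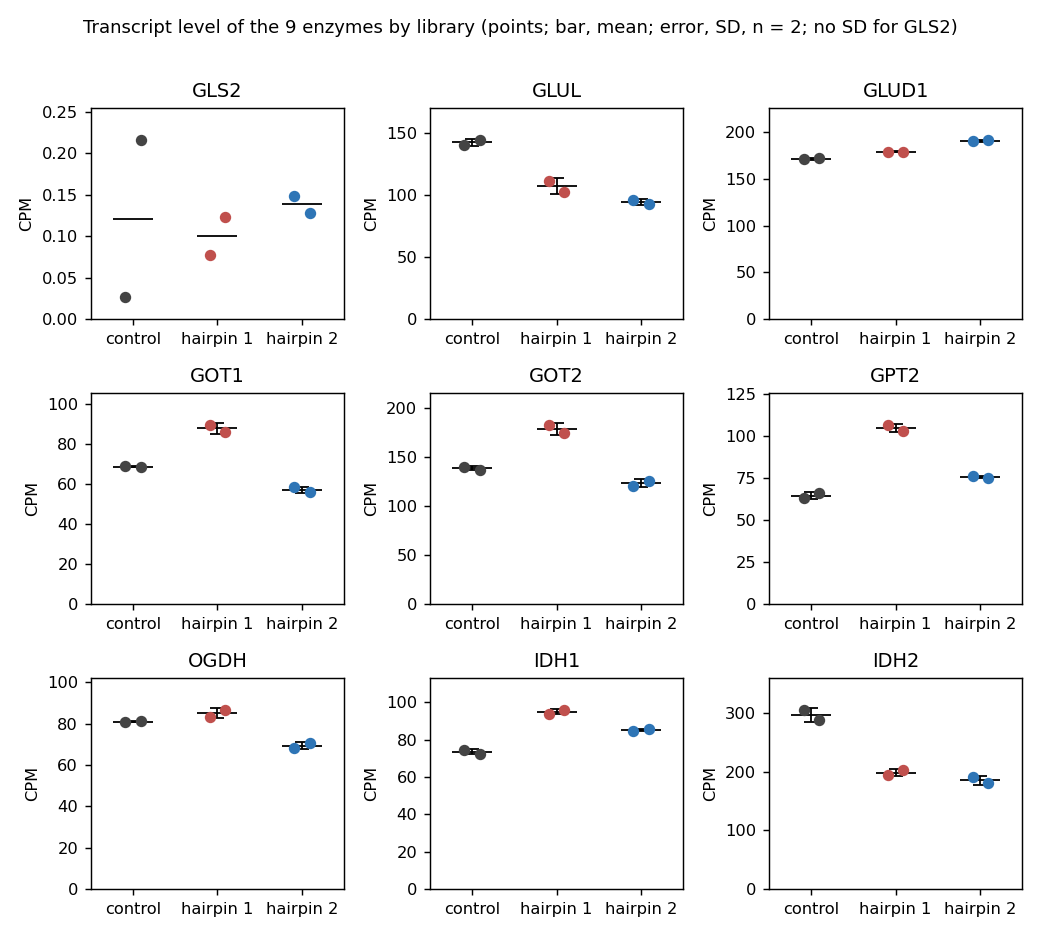
Level of the 9 enzymes in CPM in each of the 6 libraries, with points for libraries, bars for group means and error bars for the SD (n = 2; not drawn for GLS2). In all 4 knockdown libraries IDH2 and GLUL lie under the controls and GPT2 and IDH1 over them, and GOT1 and GOT2 lie on opposite sides of control with the 2 hairpins.

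GLUL, glutamine synthetase, makes glutamine from glutamate and ammonia (ENSG00000135821, hg38 chromosome 1, 182381704 to 182392206, minus strand). Its libraries held 141 and 144 CPM in control cells, 112 and 103 with hairpin 1, and 96.1 and 93.0 with hairpin 2. All 4 knockdown libraries were below both controls, and hairpin 2 was below hairpin 1. After correction for GC content and length the fall of GLUL was larger, at −0.58 with hairpin 1 and −0.82 with hairpin 2 (edgeR adjusted p = 2.5e-06 and 5.2e-07). Without it, GLUL fell 1.33-fold with hairpin 1 (log2 −0.41, SE 0.05, edgeR adjusted p = 2e-04) and 1.51-fold with hairpin 2 (−0.59, SE 0.05, edgeR adjusted p = 3.2e-05). Hairpin 2 minus hairpin 1 was −0.18 (SE 0.05, edgeR adjusted p = 0.018), but this call was lost without hairpin 1 replicate 1 (−0.12, edgeR adjusted p = 0.13), without hairpin 2 replicate 1 (−0.21, 0.057) and without hairpin 2 replicate 2 (−0.15, 0.13).

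GLS2, the liver-type glutaminase, runs the opposite reaction (ENSG00000135423, chromosome 12, 56470944 to 56488414, minus strand). The libraries held 1 and 8 counts in control cells, 3 and 4 with hairpin 1, and 6 and 5 with hairpin 2. No difference between groups was detectable at this depth. Exons of SPRYD4 on the other strand cover 77.1% of the exon bases of GLS2, and SPRYD4 held 4820 counts in all. Whether counting used strand is not given in the sources used here, so even these few GLS2 reads are uncertain. The log2 ratio of GLUL to GLS2 spread from 8.26 to 11.25 within the control libraries alone, and it could not be compared between groups.

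GLUD1 is the mitochondrial glutamate dehydrogenase, which deaminates glutamate to alpha-ketoglutarate (ENSG00000148672, chromosome 10, 87050486 to 87094866, minus strand). It stood at 171 and 173 CPM in control cells, 179 and 179 with hairpin 1, and 190.3 and 192 with hairpin 2. The groups did not overlap, yet they lay close together. With hairpin 2 it rose 1.11-fold (0.15, SE 0.04, edgeR adjusted p = 0.0085), and for the mean of the hairpins by 0.11 (SE 0.03, edgeR adjusted p = 0.023), while with hairpin 1 it did not pass (0.06, edgeR adjusted p = 0.21). Neither call held after correction for GC content and length (0.08, edgeR adjusted p = 0.099 with hairpin 2, and 0.06, 0.17 over both). The call over both hairpins was also lost without any 1 control or hairpin 2 library, at edgeR adjusted p of 0.11 and 0.069 without control replicate 1 and 2, and 0.082 and 0.077 without hairpin 2 replicate 1 and 2. The call with hairpin 2 was lost without replicate 1 or 2 of hairpin 2 (0.064 and 0.061). SHLD2 on the other strand overlaps 13.2% of the exon bases of GLUD1. The X-linked copy GLUD2 and the pseudogene GLUD1P3 held 0.346% and 0.711% as many counts as GLUD1, and summing all such rows changed no call.

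The aminotransferases are the enzymes whose reaction most resembles that of BCAT1, since each passes an amino group between an amino acid and alpha-ketoglutarate. All 3 stood higher with hairpin 1 than in control cells. With hairpin 2, GPT2 was also higher. The aspartate aminotransferases were lower, though for GOT2 this did not pass after the correction for GC content and length.

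GPT2, the mitochondrial alanine aminotransferase, showed the largest rise of the 8 tested (ENSG00000166123, chromosome 16, 46884378 to 46931297, plus strand). Its level was 63.0 and 66.1 CPM in control cells, 107 and 103 with hairpin 1, and 76.2 and 75.1 with hairpin 2. The 3 groups were separate, with hairpin 1 at the top. It rose 1.62-fold with hairpin 1 (0.70, SE 0.05, edgeR adjusted p = 6.1e-06) and 1.17-fold with hairpin 2 (0.23, SE 0.05, edgeR adjusted p = 0.0031). Between the hairpins the difference was −0.47 (SE 0.04, edgeR adjusted p = 5.5e-05).

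GOT1, the cytosolic aspartate aminotransferase, changed in opposite directions with the hairpins (ENSG00000120053, chromosome 10, 99396870 to 99431569, minus strand). It stood at 68.9 and 68.5 CPM in control cells, 89.5 and 86.0 with hairpin 1, and 58.3 and 56.0 with hairpin 2. Hairpin 1 libraries were above, and hairpin 2 libraries below, both controls. GOT1 rose 1.28-fold with hairpin 1 (0.35, SE 0.05, edgeR adjusted p = 0.00028) and fell 1.20-fold with hairpin 2 (−0.27, SE 0.05, edgeR adjusted p = 0.0015). After correction for GC content and length these were 0.47 (edgeR adjusted p = 8e-06) and −0.13 (edgeR adjusted p = 0.033). The long non-coding gene AL391684.1 covers 19.3% of its exon bases from the other strand, with 91 counts in all libraries together.

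GOT2, the mitochondrial aspartate aminotransferase, followed the same course (ENSG00000125166, chromosome 16, 58707131 to 58734357, minus strand). Its levels were 140.1 and 137 CPM in control cells, 183 and 175 with hairpin 1, and 121 and 126 with hairpin 2, again without overlap. It rose 1.29-fold with hairpin 1 (0.37, SE 0.04, edgeR adjusted p = 0.00019). The 1.12-fold fall with hairpin 2 (−0.17, SE 0.04, edgeR adjusted p = 0.013) did not pass once GC content and length were corrected for (−0.07, edgeR adjusted p = 0.19), without control replicate 1 (−0.16, 0.051) and without hairpin 2 replicate 1 (−0.14, 0.11). The hairpins differed by −0.62 for GOT1 and −0.53 for GOT2 (SE 0.05 and 0.04, edgeR adjusted p = 1.4e-05 and 2.6e-05). Because the hairpins pulled apart, the mean over both was small: 0.04 for GOT1 (edgeR adjusted p = 0.4) and 0.10 for GOT2 (0.061). With the GC and length correction, both means passed upwards (GOT1 0.17, edgeR adjusted p = 0.0032; GOT2 0.19, 0.0017). The mean of GOT2 also passed without hairpin 1 replicate 2 (0.12, 0.039), in DESeq2 (0.11, 0.045), with DESeq2-type size factors (0.11, 0.05) and with a stricter low-count filter (0.11, 0.035).

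**Figure D3:**
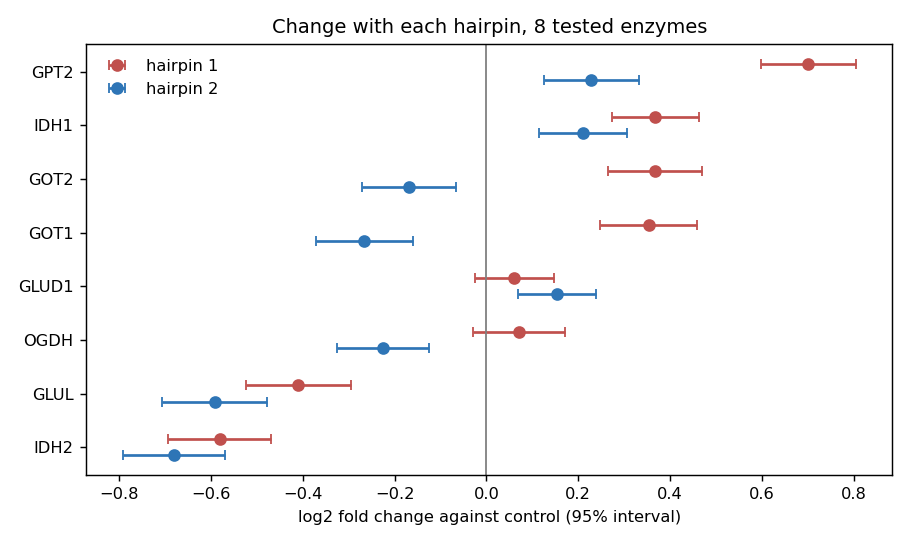
Log2 fold change against control with hairpin 1 and with hairpin 2 for the 8 tested enzymes, with 95% intervals from the edgeR fit. The values carry no correction for GC content and length. GOT1 and GOT2 lie to the right of 0 with hairpin 1 and to the left with hairpin 2, while IDH2 and GLUL lie to the left with both.

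IDH2, the mitochondrial NADP-dependent isocitrate dehydrogenase, showed the largest fall without correction (ENSG00000182054, chromosome 15, 90083045 to 90102504, minus strand). It measured 306 and 288 CPM in control cells, 194 and 203 with hairpin 1, and 190.4 and 180.2 with hairpin 2. Every knockdown library was below both controls, and the hairpin groups lay next to each other. The fall was 1.5-fold with hairpin 1 (−0.58, SE 0.05, edgeR adjusted p = 2.4e-05) and 1.60-fold with hairpin 2 (−0.68, SE 0.05, edgeR adjusted p = 1.4e-05). The difference between hairpins did not pass (−0.10, 95% interval −0.21 to 0.01, edgeR adjusted p = 0.13). IDH2 is GC-rich (57.3%) and its annotated exons are short (2.81 kb). After the correction it still fell, by 0.32 and 0.34 on the log2 scale (edgeR adjusted p = 0.00011 and 9.1e-05), less than GLUL did.

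IDH1, the cytosolic enzyme of the same reaction, moved the other way (ENSG00000138413, chromosome 2, 208236227 to 208266074, minus strand). IDH1 measured 74.7 and 72.6 CPM under shControl, 94.0 and 96.1 under hairpin 1, and 84.8 and 85.6 under hairpin 2. All knockdown libraries were above both controls, and hairpin 1 was above hairpin 2. IDH1 rose 1.29-fold with hairpin 1 (0.37, SE 0.04, edgeR adjusted p = 0.00013) and 1.16-fold with hairpin 2 (0.21, SE 0.04, edgeR adjusted p = 0.003). After correction for GC content and length the rise with hairpin 1 was 0.25 (edgeR adjusted p = 0.00067), and that with hairpin 2 was lost (0.02, 0.77). Hairpin 2 minus hairpin 1 was −0.16 (SE 0.04, edgeR adjusted p = 0.013), which became −0.24 after the correction (edgeR adjusted p = 0.00091) and did not pass without hairpin 1 replicate 2 (−0.15, 0.079), hairpin 2 replicate 1 (−0.15, 0.084) or hairpin 2 replicate 2 (−0.16, 0.075).

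The balance of the isoenzymes was compared within each library as the log2 ratio of their length-scaled levels. For IDH1 to IDH2 it was −2.78 and −2.74 in control cells, −1.79 and −1.82 with hairpin 1, and −1.91 and −1.82 with hairpin 2. Put as a ratio, IDH1 stood at 0.148 of IDH2 in control cells, 0.285 with hairpin 1 and 0.274 with hairpin 2. The rise of 0.92 in the log2 ratio had an exact permutation p of 0.0667 (two-sided, 4 libraries against 2), which is the smallest these 15 splits allow. The ratios were taken without the per-library GC and length correction. The corrected fold changes over both hairpins, 0.14 for IDH1 and −0.33 for IDH2, lie closer together than the uncorrected 0.29 and −0.63. With hairpin 2 alone the corrected changes were 0.02 for IDH1 (edgeR adjusted p = 0.77) and −0.34 for IDH2 (9.1e-05).

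The log2 ratio of GOT1 to GOT2 was −0.86 and −0.84 in control cells, −0.87 and −0.86 with hairpin 1, and −0.89 and −1.01 with hairpin 2. Here the knockdown libraries differed from control by −0.06 on average (exact permutation p = 0.4, smallest possible 0.0667). The level of both genes shifted with the hairpin by more than their ratio did.

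**Figure D4:**
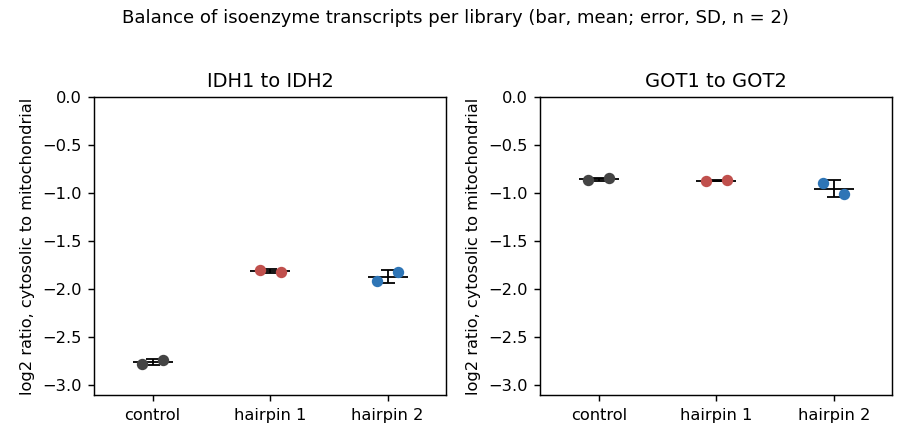
Log2 ratio of cytosolic to mitochondrial isoenzyme transcripts, scaled to exon length, in each library (points; bars, mean; error bars, SD, n = 2). The IDH1 to IDH2 ratio is higher in all 4 knockdown libraries, from −2.76 to −1.81 and −1.87 on average, and the GOT1 to GOT2 ratio stays between −1.01 and −0.84. The per-library GC and length correction was not applied to these ratios.

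OGDH, the catalytic E1 subunit of the oxoglutarate dehydrogenase complex, uses alpha-ketoglutarate in the citric acid cycle (ENSG00000105953, chromosome 7, 44606572 to 44709066, plus strand). It stood at 80.8 and 81.4 CPM in control cells, 83.5 and 86.8 with hairpin 1, and 68.2 and 70.5 with hairpin 2. Only the hairpin 2 libraries were below control. OGDH fell 1.17-fold with hairpin 2 (−0.23, SE 0.04, edgeR adjusted p = 0.0028) and did not pass with hairpin 1 (0.07, 95% interval −0.03 to 0.17, edgeR adjusted p = 0.22). After correction for GC content and length the fall with hairpin 2 was lost (−0.06, edgeR adjusted p = 0.25) and a rise with hairpin 1 passed (0.19, 0.0028). The difference between hairpins passed without the correction and with it (−0.30, SE 0.04, edgeR adjusted p = 0.00069, and −0.25, 0.00046).

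By comparison, 4 of the 8 tested enzymes rose and 2 fell with hairpin 1, where 49.1% of all genes passed, 24.2% upwards and 24.9% downwards. With hairpin 2, 3 rose and 5 fell, where 49.3% of all genes passed, 23.9% upwards and 25.4% downwards. Both comparisons share the control libraries. After correction for GC content and length, 4 of the 8 rose and 2 fell over both hairpins, 5 rose and 2 fell with hairpin 1, and 1 rose (GPT2) and 3 fell (GLUL, GOT1 and IDH2) with hairpin 2. Of the 13907 coding genes in the corrected fit, 3083 rose and 4288 fell over both hairpins, 3842 and 4018 with hairpin 1, and 3002 and 4341 with hairpin 2. Between the hairpins, 6 of 8 were lower with hairpin 2 and 0 higher in edgeR and in DESeq2, where 46.2% of all genes passed, 22.9% upwards and 23.3% downwards. At an unadjusted p under 0.05 1 enzyme was higher with hairpin 2 in either tool, GLUD1 (0.09, 95% interval 0.01 to 0.18). After correction for GC content and length that difference of GLUD1 was 0.045 (edgeR adjusted p = 0.32). The median log2 difference was −0.24 for the enzymes and 0.01 for all genes.

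**Figure D5:**
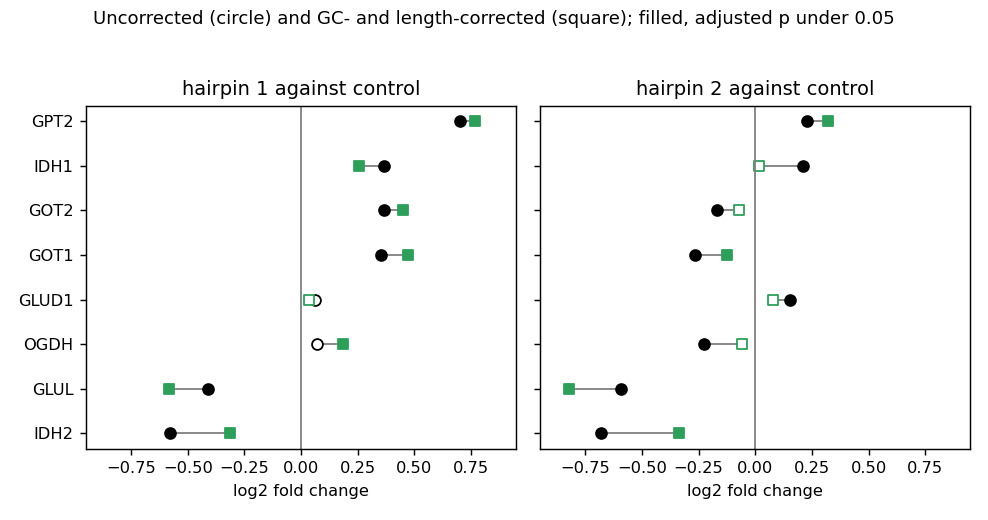
Log2 fold change of the 8 tested enzymes with each hairpin against control, without correction (circles) and after correction for GC content and length (squares), filled where the adjusted p was under 0.05. With hairpin 2 the squares of IDH1, GOT2, GLUD1 and OGDH are open, and the squares of IDH2 lie at −0.32 and −0.34.

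Other enzymes and carriers of the pathway were counted in lists. Each count stands beside the 50% of all genes that passed over both hairpins, 23.6% upwards and 26.4% downwards, and is a description only. Of 10 tested aminotransferase and glutaminase genes outside the 9, 5 rose and 3 fell over both hairpins (median 0.22), and 2 rose and 3 fell after correction for GC content and length. The fallen genes include BCAT1 itself. PSAT1, the serine pathway aminotransferase that also turns glutamate into alpha-ketoglutarate, went from 126 and 136 CPM to 259 and 276 with hairpin 1 and 152 and 152 with hairpin 2. It rose by 0.62 (SE 0.05, edgeR adjusted p = 1.2e-05). PSAT1 was thus higher with hairpin 1 than with hairpin 2 (−0.82, SE 0.05, edgeR adjusted p = 4.8e-06), in the same order as GPT2.

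Of 10 glutamine amidotransferases, which take the amide nitrogen of glutamine and leave glutamate, 5 rose and 1 fell (median 0.09), with 4 and 3 after the correction. GFPT1, the entry enzyme of hexosamine synthesis, rose 2.14-fold from 61.6 and 64.3 CPM to 154 and 146 with hairpin 1 and 119 and 123 with hairpin 2 (1.10, SE 0.04, edgeR adjusted p = 1.3e-06). PPAT, which opens purine synthesis, rose by 0.56 (SE 0.05, edgeR adjusted p = 2.2e-05). ASNS, asparagine synthetase, stood at 98.3 and 101 CPM in control cells, 234 and 223 with hairpin 1, and 93.1 and 94.2 with hairpin 2, a mean rise of 0.55 (SE 0.04, edgeR adjusted p = 9.9e-06). With hairpin 2 alone ASNS did not pass (−0.09, edgeR adjusted p = 0.12) until the correction was made (−0.25, 0.00053). The corrected rises over both hairpins were 0.68 for GFPT1, 0.28 for PPAT and 0.43 for ASNS, and with hairpin 2 alone that of PPAT was lost (0.04, edgeR adjusted p = 0.39).

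On the routes from glutamate to proline, GABA and glutathione, 4 of 11 tested genes rose and 4 fell (median −0.14), with 3 and 2 after the correction. ALDH18A1, which commits glutamate to proline synthesis, rose from 111 and 111 CPM to 155 and 151 with hairpin 1 and 170.5 and 172 with hairpin 2 (0.54, SE 0.03, edgeR adjusted p = 7.2e-06). PYCR3, a later enzyme on that route, changed by −0.86 (SE 0.09, edgeR adjusted p = 6e-05), and by −0.53 after the correction. ALDH5A1, which completes GABA breakdown, rose by 0.63 (SE 0.11, edgeR adjusted p = 0.0019). With hairpin 2 it rose by 0.93 (edgeR adjusted p = 0.00041). With hairpin 1 it did not pass (0.33, edgeR adjusted p = 0.068) until the correction was made (0.34, 0.041). The difference between the hairpins was 0.60 (SE 0.13, edgeR adjusted p = 0.0045).

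Among 5 genes for partners or relatives of OGDH, 2 rose and 1 fell (median −0.03), and 1 rose and 2 fell after the correction. DLST, the E2 subunit of the complex, changed by −0.30 (SE 0.03, edgeR adjusted p = 0.00014). DLD, the E3 subunit, rose by 0.30 (SE 0.04, edgeR adjusted p = 0.00043), a call lost after the correction (0.06, 0.24). OGDHL, an OGDH-like protein, stood at 20.4 and 21.0 CPM in control cells, 35.7 and 35.7 with hairpin 1, and 18.5 and 17.8 with hairpin 2. It rose with hairpin 1 (0.79, SE 0.07, edgeR adjusted p = 3.4e-05) and did not pass with hairpin 2 (−0.19, 0.056). Its hairpin difference (−0.98, SE 0.07, edgeR adjusted p = 1.2e-05) had the sign of that of OGDH.

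Of 20 other citric acid cycle enzymes, 2 rose and 9 fell (median −0.11), and 4 rose and 10 fell after the correction. Without the correction, 11 of 20 passed, a share near the 50% of all genes. IDH3B, a subunit of the NAD-dependent mitochondrial isocitrate dehydrogenase, changed by −0.50 (SE 0.05, edgeR adjusted p = 4.5e-05), and by −0.23 after the correction. ME1, cytosolic malic enzyme, rose by 0.55 (SE 0.07, edgeR adjusted p = 0.00025), with 63.3 and 57.9 CPM for hairpin 1, 32.9 and 34.2 for hairpin 2 and 28.7 and 32.8 for control. With hairpin 2 alone ME1 did not pass (0.13, edgeR adjusted p = 0.23). SDHC, a subunit of succinate dehydrogenase, changed by −0.31 (SE 0.04, edgeR adjusted p = 0.00031), and by −0.71 after the correction. With hairpin 2 it did not pass (0.01, edgeR adjusted p = 0.91) until the correction was made (−0.46, 1.5e-05).

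Of 12 carriers of glutamine, glutamate and related acids, 6 rose and 4 fell (median 0.09), and 6 rose and 5 fell after the correction. SLC25A1, the mitochondrial citrate carrier, went from 46.2 and 43.5 CPM to 22.2 and 22.5 with hairpin 1 and 22.5 and 21.2 with hairpin 2 (−1.02, SE 0.06, edgeR adjusted p = 4.8e-06). SLC38A1, a glutamine importer, rose by 0.67 (SE 0.04, edgeR adjusted p = 8.4e-06), and SLC1A3, a glutamate importer, changed by −0.70 (SE 0.05, edgeR adjusted p = 8.5e-06). After the correction these were −0.59, 0.31 and −0.88. SIRT3, a mitochondrial deacetylase, changed by −0.37 (SE 0.08, edgeR adjusted p = 0.0055), 1 of 3 sirtuin genes to pass, and by −0.20 after the correction. Exons of ASNS, ALDH5A1, DLD, SDHC, PPAT and SIRT3 overlap those of other annotated genes, so part of their reads is uncertain.

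The transcripts most like IDH2, the member with the largest uncorrected mean change over both hairpins, were DNPH1, MPG and GPR176. They lay at Euclidean distances of 0.0557, 0.0688 and 0.0742 from IDH2 in log2 CPM centred on the mean of the 6 libraries, out of 11000 genes with a symbol and a mean of at least 5 CPM. DNPH1, the nearest, measured 41.7 and 40.0 CPM in control cells, 26.0 and 26.7 with hairpin 1, and 25.3 and 24.6 with hairpin 2. The distance is a description of 6 libraries.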

How the data were processed

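The authors deposited raw counts, 1 row per Ensembl gene and 1 column per library, without normalization. Per the submitters' processing notes, HISAT2 version 2.2.0, StringTie and hg38 were used; annotation release, counting options and strand: not given in the sources used here. Symbols were looked up by Ensembl ID (56105 of 64252 matched), and positions, exon lengths and GC content from GENCODE 29.

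Low counts were removed with filterByExpr (minimum count 10, by group) and libraries scaled with TMM (factors 0.96 to 1.03) and fold changes tested in R 4.3.3 with edgeR 4.0.16 (glmQLFit, glmQLFTest), 1 term per group and all 6 libraries in 1 fit, two-sided. This kept 18734 genes. CPM uses TMM-scaled library sizes, SEs come from the F statistic, and the common biological coefficient of variation was 8.66%. A simulation placed changes in 200 genes and tested both hairpins against control over 18364 genes. It recovered 48% of changes of 0.5 (log2), 77.8% of 1 and 92.2% of 2, and 5.5% of 145 calls were false. In the data 50% of all genes passed, a far larger share, so these rates need not hold for the data. The correction for GC content and length took a spline fit (5 degrees of freedom each) per library over protein-coding genes. Replicates differed by more than sampling noise (chi-square per gene 5.73 to 8.23, where noise gives about 1). The members and lists were chosen with earlier results of these data known. Named were all 9 members, BCAT1 and, per list, at most the 3 genes with the smallest p; some genes that this rule allows are not reported here. Alternatives were DESeq2 1.42.0, its type of size factors, other filters, a replicate term, only the groups compared, a fold threshold of 1.5, summed copies and each library left out.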

Additional observations from a re-analysis of the deposited data

Results flagged for a closer look

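For 6 of the 8 tested enzymes the effects of the 2 hairpins differed in the test of the difference itself (edgeR), where 46.2% of all genes also passed. The log2 difference, hairpin 2 minus hairpin 1, was −0.62 for GOT1, −0.53 for GOT2, −0.47 for GPT2, −0.30 for OGDH, −0.18 for GLUL and −0.16 for IDH1. BCAT1 itself was lower with hairpin 1 than with hairpin 2, by 1.03 on the log2 scale, and its part in these differences was not tested.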

How the results depend on the processing

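Of the single-enzyme values under the alternatives, 96 of 115 over both hairpins, 116 of 123 for hairpin 1, 103 of 123 for hairpin 2 and 110 of 123 between the hairpins kept their direction and their side of the threshold, and 0 called values changed sign. With a fold threshold of 1.5 (edgeR's glmTreat), genes called dropped to 1039 over both hairpins, 1769 for hairpin 1, 1397 for hairpin 2 and 1774 between the hairpins. Enzymes called were then 0, 1 (GPT2), 0 and 0, and at an unadjusted p under 0.05 they were 0, 1, 1 (IDH2) and 0, against 6, 6, 8 and 6 in DESeq2 without a fold threshold. With hairpin 2, 4 of 8 enzymes passed after the GC content and length correction, and also 4 with the replicate block and that correction together. With the replicate block alone, 5, 6, 8 and 6 enzymes passed, as without it, and 9000 genes over both hairpins. Replicate numbers did not pair the libraries: differences between replicates 1 and 2 correlated at −0.038 to −0.003 between groups. Leaving out each library gave 4 to 6 enzymes over both hairpins, 6 with hairpin 1, 6 to 8 with hairpin 2 and 4 to 6 between the hairpins, and a GLUL to GLS2 log2 shift from −2.617 to 0.375 (−1.121 with all libraries), which reversed without control replicate 1. The control libraries held 1 and 8 counts of GLS2. GLS2 is the enzyme that depth limited.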
